A study of Homo sapiens with 4 samples.

Results

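The MYC, MAX and MLX network was measured through 8 genes, MYC, MAX, MXI1, MXD1, MXD4, MNT, MLX and MLXIP. Its members were the probe sets that the platform annotation gives to one of these symbols alone. They were 22 of the 54675 probe sets on the array and covered 7 of the 8 genes, out of 19775 genes named by single-gene probe sets. MXD4 had no member, since its 3 probe sets are annotated to several genes, and no value is given for it. MAX had 5 probe sets, MLX 6, MLXIP 4, MXD1 3, MNT 2, and MYC and MXI1 had 1 each.

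The study asked how lowering dermcidin (DCD), a secreted peptide best known from sweat glands, alters MDA-MB-361 cells, a HER2-positive luminal breast cancer line. RNA from 4 cultures was hybridised to 1 Affymetrix U133 Plus 2.0 array each. The shDCD group held clones 1, 2 and 3, each with an shRNA against another region of the DCD transcript, delivered by a pLKO-puro lentivirus. The control group was a single culture of MDA-MB-361 carrying the empty pLKO vector. All 4 cultures shared the cell line and the vector backbone. The pLKO array had no replicate, and the 3 clones differed in hairpin, so the spread among them held both the hairpin and the array. The 3 comparisons share that 1 control, so an unusual pLKO value would shift all of them the same way.

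Proteins of this network bind DNA in pairs through a basic helix-loop-helix leucine zipper. MYC pairs with MAX at E-box sequences and activates genes of ribosome production, nucleotide synthesis and the cell cycle, while MXD1, MXI1, MXD4 and MNT compete for MAX and recruit SIN3 corepressor complexes to the same sites. MLX pairs with the glucose-sensing Mondo factors MLXIP (MondoA) and MLXIPL (ChREBP), and also with some of the repressors, which joins both arms.

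The DNA element the network reads is shown in the promoters of its own members, together with those of the Mondo targets described further on. RefSeq promoters (GRCh38.p14, 250 bases before to 50 after each start) were read for 7 of the 8 genes, 10 promoters in all. The E-box CACGTG, which reads the same on both strands, was in 3 of the 10, those of MXD4, MNT and MLX, and in 2548 of all 35116 promoters (7.26%). A tandem form, CACGNG and CNCGNG with 5 bases between them, was searched on both strands as the arrangement that Mondo and MLX pairs read, and it was in 176 promoters (0.501%), among them 1 of the 3 of MXI1. The capitals mark the match, and the sequences run 5′ to 3′ along the gene's strand. A match describes these letters and does not show binding.
MNT, E-box, chr17:2401223-2401278, minus strand: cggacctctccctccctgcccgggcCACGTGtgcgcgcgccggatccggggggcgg
MLX, E-box, chr17:42567025-42567080, plus strand: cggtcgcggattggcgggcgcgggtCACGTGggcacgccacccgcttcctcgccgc
MXI1, tandem form, chr10:110210136-110210202, plus strand: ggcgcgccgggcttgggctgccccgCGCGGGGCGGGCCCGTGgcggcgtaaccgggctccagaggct
TXNIP, tandem form, chr1:145996626-145996692, minus strand: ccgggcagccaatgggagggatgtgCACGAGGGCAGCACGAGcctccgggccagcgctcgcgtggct
ARRDC4, E-box, chr15:97960468-97960523, plus strand: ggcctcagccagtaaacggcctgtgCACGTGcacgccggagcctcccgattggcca
PFKFB3, E-box, chr10:6202799-6202854, plus strand: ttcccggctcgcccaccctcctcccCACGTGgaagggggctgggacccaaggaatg

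The arrays differed in ways that touch the member values. Median deposited intensity was 13.4 to 24.7 in the shDCD arrays and 20.6 in pLKO. For the ACTB control, intensity at the 3′ probe set over that at the 5′ one, which grows as RNA is less complete, was 9.67, 2.58 and 42.6 in clones 1, 2 and 3 and 5.29 in pLKO. Clone 3 stood apart, with 55.1% of its deposited values under 16, against 39.3% to 43.9% on the other arrays, and a correlation with pLKO of 0.722 across probe sets, against 0.889 for clone 1 and 0.937 for clone 2. The DCD probe set read 7, 6 and 2.7 in the clones and 2 in pLKO, under 16, the floor applied after normalization, on every array, so the targeted gene could not check the labels. All 8 luminal and HER2-type markers passed the filter on low signal described below, as did 12728 of the 19775 genes. Deposited ERBB2 intensity ran from 369.2 in clone 3 to 5400.9 in clone 2 and was 3372.6 in pLKO. Of 7 markers of other cell types 3 passed, COL1A1, COL1A2 and PECAM1. The filter ranks signal against the median probe set and is not a detection call.

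Unless stated otherwise, differences are log2 values of quantile-normalized intensity, shDCD minus pLKO, so that 1 unit is a 2-fold difference. Of the 22 member probe sets 15 passed the filter on low signal (a mean over the 4 arrays no lower than that of the median probe set, on the log2 scale), with every one of the 7 genes represented. As deposited, 4 of the 15 were lower in all 3 comparisons, where 19.4% of probe sets were, and 1 was higher, where 12.1% were. After normalization 6 of the 15 were lower than pLKO in all 3 comparisons, where 20.0% of the 27307 probe sets tested were, and 2 were higher in all 3, where 19.4% were. The other 7 differed in sign between clones. The lower ones were the probe sets of MYC and MXI1, 1 of MAX and 3 of MLX, and the higher ones were 1 of MLX and 1 of MLXIP. limma called none of the 15 (adjusted p = 0.99998 for each, and 0 with an unadjusted p under 0.05), nor any of the 27307 probe sets, of which 204 (0.747%) had an unadjusted p under 0.05. The methods' paired test had 2 members with an unadjusted p under 0.05, both of MLX, where 8.50% of all probe sets had one, and none after adjustment. Its 3 differences subtract the same pLKO array, so its spread comes from the clones alone and holds no variation of the control. In such bulk RNA fewer expressing cells and less RNA per cell cannot be told apart.

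**Figure D1:**
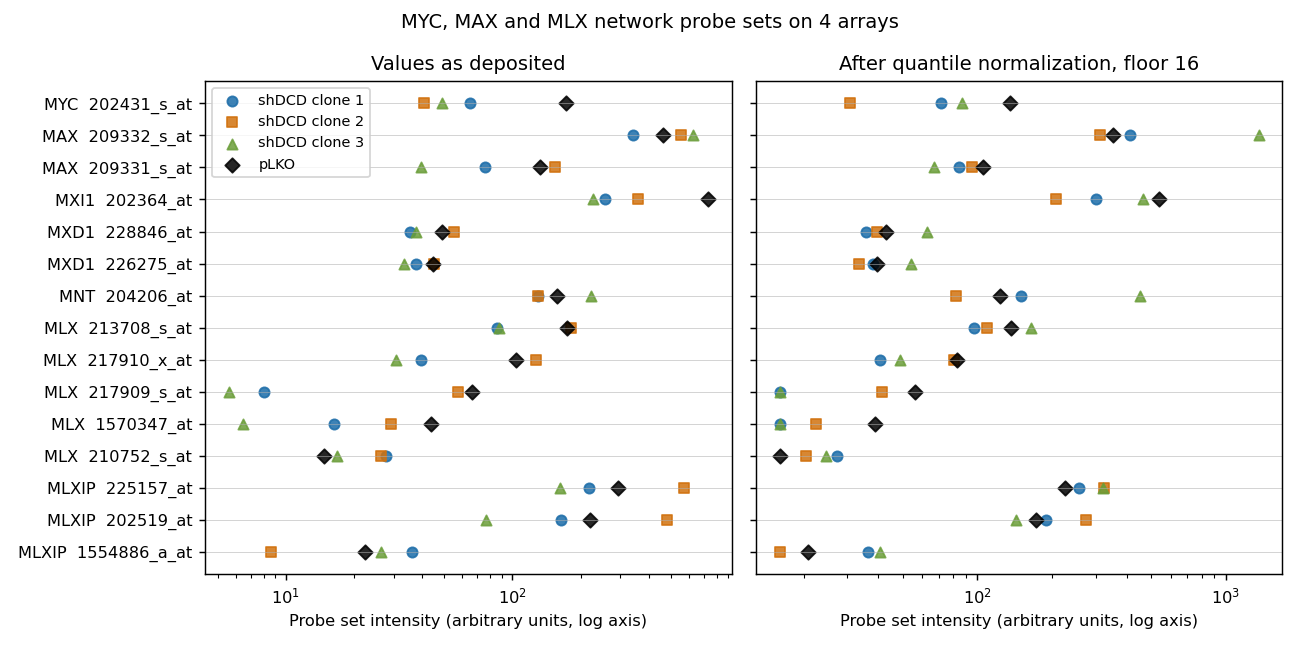
Intensity (arbitrary units, log axis) of the 15 member probe sets that passed the filter, 1 point per array, as deposited on the left and after quantile normalization with a floor of 16 on the right. For MYC (172.5 as deposited) and MXI1 (729.5 as deposited) the pLKO diamond lies to the right of all 3 shDCD arrays in both panels, while for MAX, MNT and MLXIP the arrays interleave or change order between panels.

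MYC, the activating partner of MAX, had the largest mean difference of the brightest probe sets of the 7 genes. Its single probe set, 202431_s_at, had deposited intensities of 64.7, 40.9 and 49.1 in clones 1, 2 and 3 and 172.5 in pLKO. After normalization these were 71.5, 30.6 and 87.0 against 135. The pLKO value was the highest on either scale, and the 3 clones did not reach it, but their own order changed with the scaling: clone 3 lay between the others as deposited and was the highest clone after normalization. The log2 differences were -0.92, -2.14 and -0.64, with a mean of -1.23 ± 0.80 (SD, n = 3 comparisons), that is 1.89-, 4.42- and 1.56-fold lower. As deposited the same probe set was 2.67-, 4.22- and 3.51-fold lower. The limma standard error was 0.79, and the difference did not pass (unadjusted p = 0.16, adjusted p = 0.99998). Without clone 2 the mean was -0.75.

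Scaling moved every gene, so the shift is given once. The median over the 12728 genes tested of the mean difference was -0.06 after quantile normalization, -0.42 as deposited and -0.30 after median centring. Relative to these, MYC lay at -1.18, -1.35 and -1.34, and MXI1 at -0.76, -0.99 and -0.98. Both lay below the typical gene under each scaling.

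MXI1 encodes an MXD-family repressor that takes MAX from MYC. Its single probe set, 202364_at, read 256, 358.1 and 227 in clones 1, 2 and 3 and 729.5 in pLKO as deposited. Normalized intensities were 300, 206 and 462 against 539. As with MYC, pLKO held the highest value on either scale and clone 2 the lowest after normalization. The log2 differences were -0.85, -1.39 and -0.22, mean -0.82 ± 0.58 (SD, n = 3 comparisons), and limma did not call them (unadjusted p = 0.29, adjusted p = 0.99998). Clone 3 was only 1.17-fold lower after normalization and 3.21-fold lower as deposited. As deposited, the activator and this repressor of the same partner were the members, of the 15, that were at least 2-fold lower in all 3 comparisons, where 1.24% of the 27307 probe sets were. The same 2 were so after median centring, where 1.28% were. After quantile normalization no member was at least 2-fold lower in all 3, where 0.765% of all probe sets were, and none was 2-fold higher, where 0.637% were. By the study's rule of 3-fold in each comparison, applied to the quantile-normalized values, no member was lower, where 0.176% of probe sets were. None was higher, where 0.0366% were. As deposited MYC, at 2.67-, 4.22- and 3.51-fold lower, missed this rule in clone 1. The paper used dChip, and its own values for the rule may differ. It reported c-MYC as lower in each of the 3 shRNA derivatives. By RT-PCR it also reported higher c-MYC in MDA-MB-361 cells treated with recombinant DCD.

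MAX is the partner shared by MYC and the repressors. Its brightest probe set, 209332_s_at, had deposited intensities of 342.6, 554.5 and 630 in clones 1, 2 and 3 and 463.1 in pLKO, so the clones lay on both sides of the control. The log2 differences were 0.22, -0.17 and 1.94, mean 0.67 ± 1.12 (SD, n = 3 comparisons), and without clone 3 the mean was 0.03. A second probe set, 209331_s_at, read 75.8, 154.2 and 39.5 against 132.3 in pLKO, with normalized differences of -0.31, -0.14 and -0.65. Clone 3 was thus the highest array for one MAX probe set and the lowest for the other. The other 3 MAX probe sets did not pass the filter.

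The remaining repressors showed no shared direction. MXD1, which rises as many cell types differentiate, had 2 of 3 probe sets past the filter. The brighter one, 228846_at, read 35.2, 55.1 and 37.5 in clones 1, 2 and 3 and 48.9 in pLKO, with differences of -0.27, -0.11 and 0.56. The other, 226275_at, read 37.4, 45.3 and 33.3 against 44.8 and had the same signs, -0.05, -0.24 and 0.45. For both, clones 1 and 2 were under pLKO and clone 3 above it after normalization, by less than the 2-fold line, and the mean of the brighter probe set turned from 0.06 to -0.23 as deposited. MNT, a broadly expressed MAX- and MLX-binding repressor, read 130.2, 130 and 222.9 against 156.9 in pLKO at 204206_at. Its differences were 0.27, -0.59 and 1.87, mean 0.52 ± 1.25 (SD, n = 3 comparisons), and the mean became -0.17 without clone 3. Clone 3 held the largest difference of MNT, as it did of MAX. The third MXD1 and the second MNT probe set did not pass the filter.

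**Figure D2:**
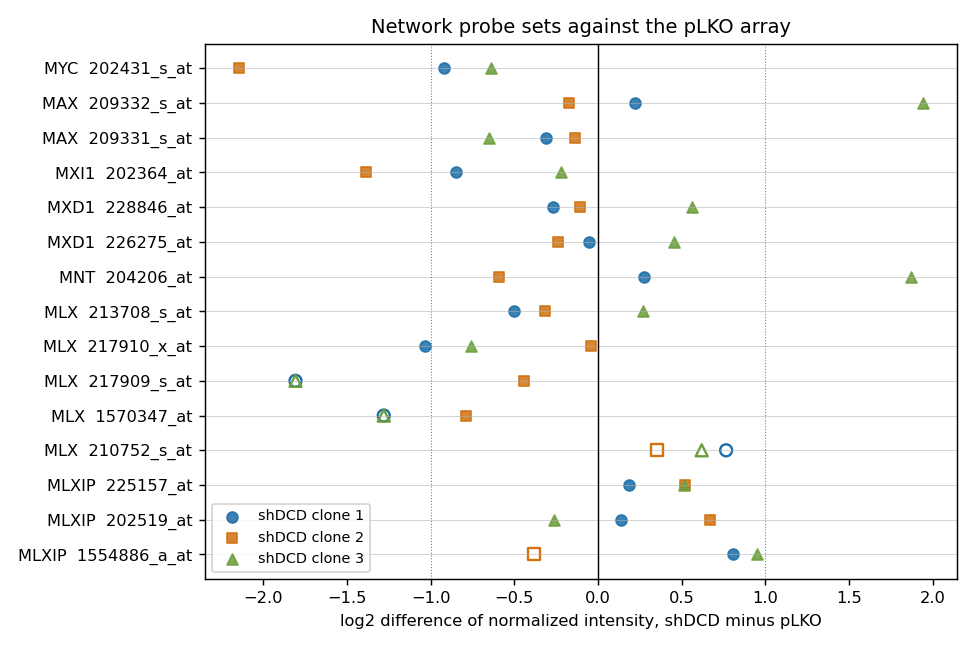
log2 difference of normalized intensity, shDCD minus pLKO, for the 15 member probe sets that passed the filter, 1 point per clone, with dotted lines at 2-fold. Open symbols are bounds, where an array was at the floor. All 3 points lie left of 0 for MYC, MXI1, 1 MAX and 3 MLX probe sets, and clone 3 stands at 1.94 for MAX and 1.87 for MNT.

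MLX, the partner of the Mondo factors, had 5 of 6 probe sets past the filter, and they did not move together. The brightest, 213708_s_at, read 85.5, 180.8 and 87.3 in clones 1, 2 and 3 and 173.8 in pLKO as deposited, with normalized differences of -0.50, -0.32 and 0.27. At 217910_x_at the values were 39.5, 127.4 and 30.8 against 103.3, and at 217909_s_at 8, 57.8 and 5.6 against 66.4. In each of these the deposited value of clone 2 was close to that of pLKO, and those of clones 1 and 3 were lower than both. For 217909_s_at clones 1 and 3 were at the floor, at least 3.50-fold lower than pLKO, while clone 2 was 1.36-fold lower. The fourth, 1570347_at, read 16.3, 29.2 and 6.5 against 43.9, with clones 1 and 3 at least 2.43-fold lower and clone 2 1.73-fold lower. The fifth, 210752_s_at, went the other way, 27.6, 26.4 and 16.9 against 14.8, and pLKO was at the floor after normalization. On the normalized scale the clones were at least 1.70-, 1.28- and 1.54-fold higher than that floor, and as deposited clone 3 was 1.14-fold above pLKO. The last pair were the members with an unadjusted p under 0.05 in the methods' paired test, of opposite direction, 0.02 and 0.04. Values at the floor lay behind both. At 1570347_at clones 1 and 3 shared the floor value, which fixed part of the spread, and at 210752_s_at the floor set the control. Nothing is read from either p-value.

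The arrays in which 4 of the MLX probe sets were lowest as deposited, clones 1 and 3, were those with the highest 3′ to 5′ control ratios. ACTB ratios were 9.67 in clone 1 and 42.6 in clone 3, against 2.58 in clone 2 and 5.29 in pLKO. Those of GAPDH were 2.18 and 13.1, against 1.02 and 1.09. MAX 209331_s_at followed the same order of arrays, from 154.2 in clone 2 through 132.3 in pLKO and 75.8 in clone 1 to 39.5 in clone 3, and MAX 209332_s_at did not. For MYC the order was another: clone 2, with the lowest ratio, had the lowest intensity, 40.9. For MXI1 the clones followed the ratios, at 358.1, 256 and 227 in clones 2, 1 and 3, with pLKO above them at 729.5. The part of RNA completeness in any of these values was not tested.

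**Figure D3:**
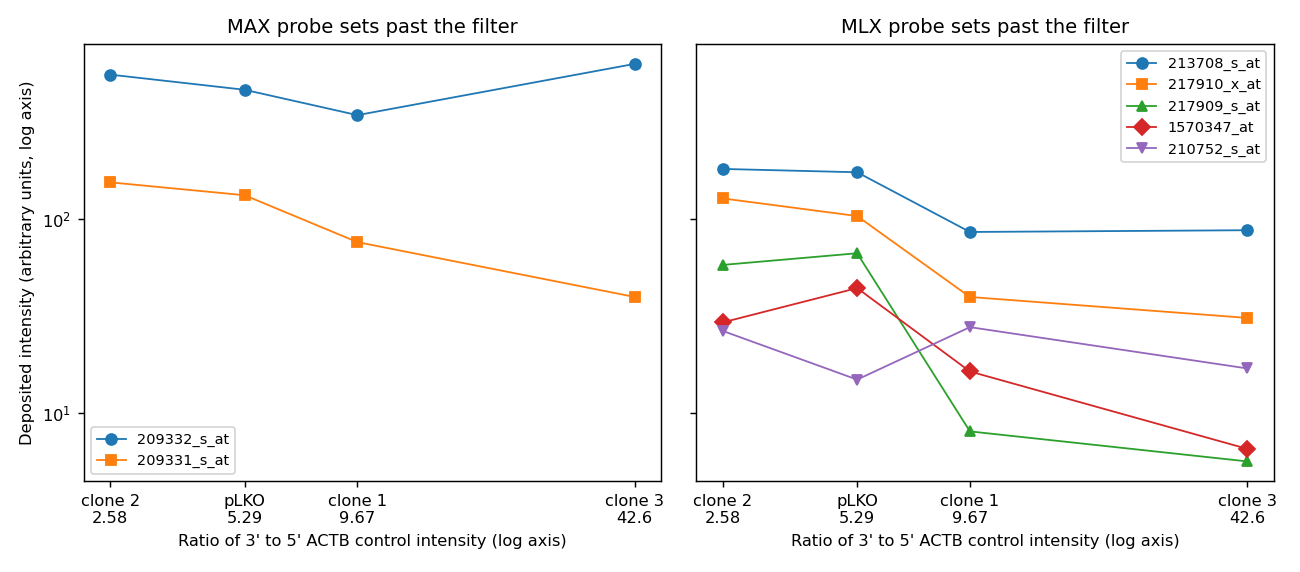
Deposited intensity (arbitrary units, log axis) of the MAX and MLX probe sets past the filter on the 4 arrays, placed by the ratio of 3′ to 5′ ACTB control intensity (log axis), with lines joining the arrays for each probe set. MAX 209331_s_at and MLX 217910_x_at go down from clone 2 to clone 3, from 154.2 to 39.5 and from 127.4 to 30.8, while MAX 209332_s_at ends at 630.

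MLXIP, or MondoA, moves from mitochondria to the nucleus when glucose phosphates accumulate. Its brightest probe set, 225157_at, read 218, 571.9 and 161.8 in clones 1, 2 and 3 and 291.6 in pLKO as deposited. After normalization it was 256, 322 and 321 against 224. The clones were on both sides of pLKO before normalization and all above it afterwards, with differences of 0.19, 0.52 and 0.52, mean 0.41 ± 0.19 (SD, n = 3 comparisons). The limma standard error was 0.65 and the unadjusted p 0.55. At 202519_at the values were 163.6, 484.2 and 76.7 against 220.9, with differences of 0.14, 0.67 and -0.26. At 1554886_a_at, with clone 2 at the floor, the differences were 0.81, -0.38 and 0.95. Of the 3 probe sets past the filter, none placed every clone on the same side of pLKO on both scales.

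By size in single arrays, 3 of the 15 member probe sets were at least 2-fold lower than pLKO in clone 1, where 10.2% of all tested were, and none was 2-fold higher, where 8.38% were. All 3 were of MLX, and among them 217909_s_at and 1570347_at were at the floor. In clone 2 there were 2 lower, MYC and MXI1, where 4.09% were, and none higher, where 3.62% were. In clone 3 there were 2 lower, where 21.3% were, and 2 higher, where 19.4% were. The lower ones were MLX 217909_s_at and 1570347_at, both at the floor, and the higher ones MAX 209332_s_at and MNT 204206_at. The median of the 15 was -0.27, -0.24 and 0.27 in clones 1, 2 and 3, against 0, 0 and -0.0015 over all probe sets tested.

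Genes with a pattern most like that of MYC over the 3 comparisons were found by the Euclidean distance of their log2 differences, among 10159 genes with no value at the floor. The nearest 5 were MEFV (0.32), CSGALNACT1 (0.42), MTFP1 (0.45), SHMT2 (0.50) and RBM24 (0.54). For MXI1 they were BNIP3 (0.20), ZFAS1 (0.22), GIRGL (0.23), TNFRSF10B (0.26) and WDR19 (0.27). The 3 differences share the pLKO array and 1 array per clone, so the likeness is a description.

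The network's other factors and its corepressors were read from lists of known partners, with each gene represented by its brightest probe set. By that measure 21.3% of the 12728 genes tested were lower in all 3 comparisons and 18.8% higher, and limma called no gene of any list. Of 4 other factors tested 1 was lower, 1 higher and 2 were mixed. MGA, which pairs with MAX in a Polycomb-type repressor complex, read 133.6, 121 and 205.6 in clones 1, 2 and 3 and 67.5 in pLKO, with differences of 1.43, 0.45 and 2.88. Only 1 of its 3 tested probe sets was higher in all 3. MYCN, the MYC paralogue of neural tissue, was at the floor in clones 1 and 3 and is given by its bound, at least 3.67-fold lower there, while its other tested probe set was higher in all 3. Of 10 genes of SIN3 and NCOR complexes 2 were lower, 1 higher and 7 mixed. SAP30, a SIN3 complex subunit, read 40.1, 164 and 19.8 against 215, with differences of -2.02, -0.74 and -2.52, and its 3 tested probe sets were all lower. HDAC1, a deacetylase of SIN3 complexes, was lower (-0.03, -0.22 and -1.20) and SIN3A, their scaffold, was higher by a small margin (0.55, 0.38 and 0.07).

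Genes that act on MYC itself were mixed for the most part. Over all genes tested 21.3% were lower in all 3 comparisons and 18.8% higher. Of 12 cofactors 3 were lower and 1 higher, with RUVBL1, an ATPase of chromatin remodelling complexes, at -0.48, -0.32 and -1.77. Of 12 genes of MYC protein turnover 3 were lower and 3 higher. PLK1, a mitotic kinase, read 16, 101.9 and 15.5 against 126.7 in pLKO and differed by -2.65 (clone 1 at the floor), -0.60 and -2.17. GSK3B, the kinase that marks MYC for degradation, read 334.3, 517.8 and 261.2 against 261.9, with differences of 0.98, 0.53 and 1.39. Of 14 transcription factors that act on MYC or MXI1 2 were lower and 1 higher, and of 6 genes of MYC mRNA stability 2 were lower and 1 higher. ZFP36, which speeds the decay of AU-rich transcripts, was lower (-0.40, -0.79 and -1.55).

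Targets of MYC lay on both sides of pLKO, as did all genes tested, of which 21.3% were lower in every clone and 18.8% higher. Of 32 tested genes that MYC is known to induce 8 lay under pLKO in every clone, 1 lay above it and 23 were mixed, and their medians were 0.02, -0.23 and 0.17 in clones 1, 2 and 3, against 0.01, 0 and -0.11 over all genes tested. SHMT2, which makes one-carbon units in mitochondria, read 542.1, 819.7 and 481.1 against 2376 in pLKO, with differences of -1.35, -1.89 and -0.72, and its 3 tested probe sets were all lower. It was also among the 5 genes nearest to MYC. LDHA, which makes lactate from pyruvate, read 2244, 2668 and 571.5 against 5877, with differences of -0.63, -1.47 and -1.72. ODC1, the first enzyme of polyamine synthesis, was lower mainly in clone 3 (-0.29, 0.13 and -3.28). In this list 15 of 40 promoters held CACGTG (37.5%), where 7.26% of all promoters did. Across the whole table, 24.3% of 1286 tested genes with the E-box in a promoter were lower in all 3 and 16.4% higher, against 20.9% and 18.7% of the 9026 without it. These shares are descriptions, and the genes share the 4 arrays.

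Of the 8 tested genes that MYC is known to repress, 3 lay under pLKO in every clone, 0 lay above it and 5 were mixed. Over all genes tested 21.3% were lower in every clone and 18.8% higher. The list medians were -0.67, -0.41 and 0.30 in clones 1, 2 and 3, against 0.01, 0 and -0.11 over all genes tested. NDRG1, a stress- and hypoxia-responsive gene, read 315, 790.3 and 75.3 in clones 1, 2 and 3 and 2946 in pLKO, and differed by -2.49, -2.25 and -3.88. DDIT3, a transcription factor of the unfolded protein response, read 95, 127.9 and 352.7 against 781.4, with differences of -2.41, -2.83 and 0.32. CDKN1A, the p21 inhibitor of cyclin-dependent kinases, differed by -0.52, -0.55 and -2.08. All 3 named genes had their highest deposited value in pLKO.

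Targets of the Mondo arm lay on both sides of pLKO and held the highest difference of the 3 target lists. Of 12 tested 1 was lower, 2 were higher and 9 mixed, where 21.3% of all genes tested were lower and 18.8% higher. The list medians were 0.56, -0.08 and -0.53, against 0.01, 0 and -0.11 over all genes tested. TXNIP, which limits glucose uptake and binds thioredoxin, read 1877 in clone 1, 2422 in clone 2 and 85 in clone 3, against 93.3 in pLKO. Clones 1 and 2 were thus 20.1- and 26.0-fold above pLKO as deposited and clone 3 was under it, and the normalized differences were 4.87, 4.12 and 1.08. ARRDC4, an arrestin-like relative of TXNIP, read 92, 256.3 and 28 against 28, with differences of 2.02, 2.55 and 0.76. For both genes clones 1 and 2 were far above the control. At the brightest probe set of each gene, clone 3 was no higher than pLKO as deposited. The other tested TXNIP probe sets had clone 3 above pLKO as deposited, at 43.4 against 16.2 and 62 against 46.4. After normalization all 3 tested TXNIP probe sets were higher than pLKO in every clone. PFKFB3, which makes an activator of glycolysis, read 41.8, 89.2 and 36.1 against 200 and was lower in each, with differences of -1.85, -1.40 and -1.39. FASN, the fatty acid synthase, differed by 0.08, -0.07 and -2.47. The promoters shown for TXNIP, ARRDC4 and PFKFB3 hold a tandem form or an E-box, and these genes lay on opposite sides of pLKO. They were shown because the genes are named here, and other genes of the list held a match too. In this list 4 of 18 promoters held CACGTG (22.2%), where 7.26% of all promoters did, and 2 held the tandem form, where 0.501% did. The brightest MLXIP probe set lay within 0.52 of pLKO in every clone after normalization, and MLXIPL did not pass the filter.

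**Figure D4:**
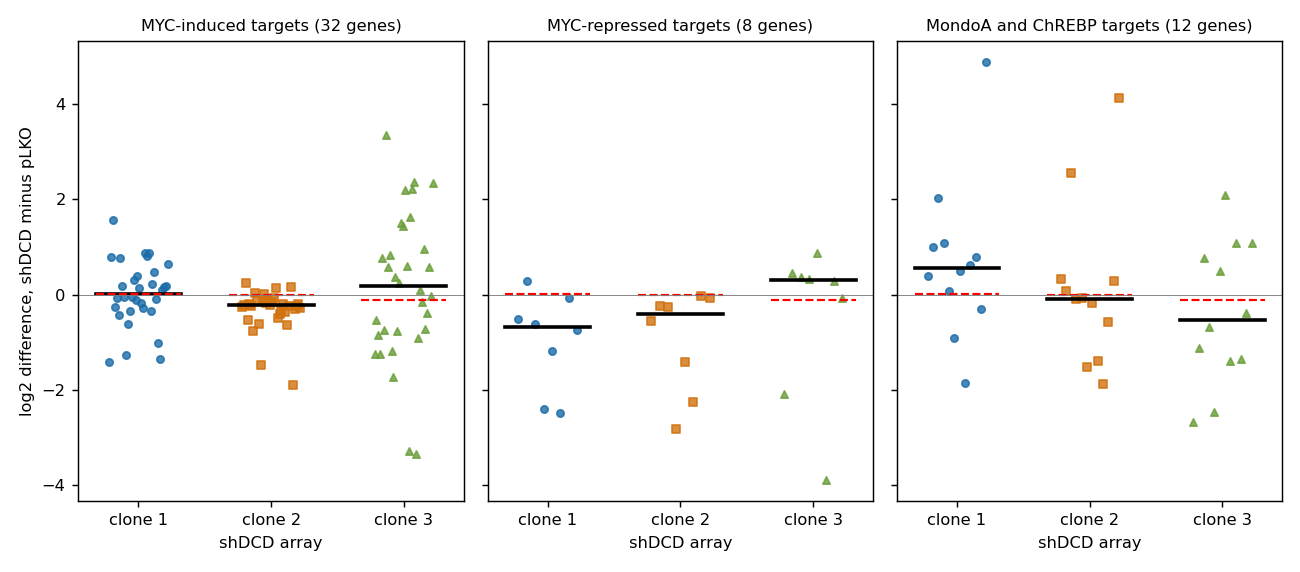
log2 difference of normalized intensity, shDCD minus pLKO, of each tested gene of 3 target lists, 1 point per gene and clone. Black bars are list medians and dashed red lines the medians of all genes tested. The MYC-induced list has medians of 0.02, -0.23 and 0.17, and the highest points of the MondoA and ChREBP list, 4.87 and 4.12, are TXNIP.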

How the data were processed

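Total RNA of 4 MDA-MB-361 cultures was measured on Affymetrix U133 Plus 2.0 arrays. The authors deposited 1 linear intensity value per probe set and array. The methods name dChip; the sources used here do not say which program wrote the deposited values. Array medians differed, so values were quantile-normalized on the log2 scale with limma (version 3.58.1, R 4.3.3), after setting 2 zeros to 0.1 and leaving out 62 control probe sets. Values under 16 were then set to 16. Probe sets dimmer than the median one by mean log2 value were left out, which kept 27307 for testing. Samples were grouped by their titles, as 3 shDCD arrays and 1 pLKO array. limma, two-sided with Benjamini-Hochberg adjustment over all probe sets tested, takes its spread from the shDCD arrays, with 2 residual degrees of freedom, and assumes that pLKO varies like them. The number of arrays limits the precision, and nothing says that the samples were repeat cultures. The methods' paired test was a t-test on the 3 log2 differences, named after the paired t-test that the paper lists among its statistics. The paper does not tie that test to the arrays, for which it describes pair-wise comparisons of pLKO with each shRNA derivative.

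The platform annotation gave 41097 probe sets 1 gene, 1801 several and left 11777 unnamed, and 41043 symbols were matched through gene identifiers to a GRCh38.p14 table. The brightest probe set by mean log2 value stood for its gene. The members and gene lists were chosen with earlier results of these data known. Of each list, counts and medians are given and up to 4 genes with the largest mean difference could be named. Alternatives were other floors, filters, scalings, a gene's mean over probe sets, another limma setting and leaving out each clone. The fit was tested on simulated data.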

Additional observations from a re-analysis of the deposited data

Results flagged for a closer look

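The control probe sets for ACTB and GAPDH, which enter no comparison between groups, had higher 3′ to 5′ intensity ratios in clones 1 and 3 than in pLKO. For ACTB the ratio was 9.67 in clone 1 and 42.6 in clone 3, against 5.29 in pLKO and 2.58 in clone 2. For GAPDH it was 2.18 in clone 1 and 13.1 in clone 3, against 1.09 in pLKO and 1.02 in clone 2. With 1 array per culture these values have no error.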

How the results depend on the processing

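Of 120 values recomputed under other settings, 105 kept their sign and stayed within the spread or within 1.5 times the count, 6 changed sign and 9 counts moved further. No setting gave a member called by limma. MYC was lower under every setting run, from -0.75 to -1.77, as was MXI1, from -0.53 to -1.41. As deposited, the mean difference of MLXIP was -0.10 and that of MNT -0.011. That of MXD1 was -0.23 as deposited and -0.095 after median centring. Leaving out each clone gave ranges of -0.17 to 1.05 for MNT and -0.20 to 0.23 for MXD1, with the negative values without clone 3. Members at least 2-fold lower in all comparisons were 0, but 2 after median centring, where 1.31% of all probe sets tested were, and 2 as deposited, where 1.25% were (MYC and MXI1 in both). With a clone left out they were 0 to 2. In the main values, the members at least 2-fold lower in both clones 1 and 3 were MLX 217909_s_at and 1570347_at, at the floor in both. Members higher in all comparisons were 2, but 1 with a floor of 64, 1 after median centring, 1 with the upper quartile filter and 0 as deposited. As deposited the filter was applied anew, and MLX 210752_s_at, higher in all 3, no longer passed it. With a clone left out 1 to 5 members were higher. Only 2 comparisons then remain, so those counts are not set against the main ones. No share over all probe sets is given for another floor, another filter or a clone left out, and nothing is read from those counts. The cause of these shifts was not tested. With a floor of 64, and with the upper quartile filter, MXD1 gave no value. No paired analysis was possible because the groups share fewer than 2 replicate numbers; the methods' paired test sets each clone against the same pLKO array and pairs no replicates. Probe sets at the floor of 16 give only bounds.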
